A study of Schmidtea mediterranea with 9 samples.

Results

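Transcripts that were higher in ovary and lower in testis than in the tissue around the gonads made up a small group of 146 of the 36036 transcripts of the planarian *Schmidtea mediterranea*. They were chosen on the mean of the 3 deposited CPM values of each tissue, read counts scaled by library size and by an undescribed factor for library composition. The non-gonadal mean had to be at least 1, the ovary mean at least 2.5 and under 16 times the non-gonadal mean, and the testis mean at most the non-gonadal mean divided by 2.5. Of the 149 transcripts that met these limits, those on a fixed list of 5 transcripts were dropped, and the limit of 300 was not reached. Because these values chose the members, their differences between tissues are descriptions and were not tested.

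Ovaries and testes are built from germ cells and from somatic cells that surround, nourish and signal to them, and in a simultaneous hermaphrodite both organs lie in the same animal. In this planarian a pair of small ovaries is found near the brain, and many testes are spread along the body. Somatic cells and oocytes in animal ovaries communicate through peptide and transmitter receptors, cyclic nucleotides, gap junctions, adhesion molecules and secreted ligands such as Wnts.

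Tissue was cut by laser from stained cryosections of wild-type worms of the sexual strain, 16 µm thick, and its RNA was sequenced in 3 libraries each of ovary, testis and non-gonadal tissue. Every ovary library pooled 14 worms, 10 cut across and 4 sagittally. Every testis library and every non-gonadal library pooled 6 worms, 4 cut across and 2 sagittally. The sources do not say whether a worm gave tissue to several libraries, nor which non-gonadal cell types were captured, and no treatment was applied.

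Total counts lay between 18611584 and 25730833 per library. The captured tissues were checked on transcripts that mark their germ cells. The female marker *lecg* averaged 2920 TPM (a level per transcript length and library total) in ovary and 98.8 TPM in testis, against 14.7 TPM in non-gonadal tissue, and *zfs1* averaged 143 TPM in ovary and 0.031 TPM in testis, against 3.29 TPM in non-gonadal tissue. Non-gonadal library 2 held 28.4 TPM of *lecg*, against 8.2 and 7.4 TPM in the other two non-gonadal libraries. The male marker *sped-1* averaged 8080 TPM in testis and 63.4 TPM in ovary, against 25 TPM in non-gonadal tissue. In that second non-gonadal library the members were a median of 1.06 times their mean in the other two, and all transcripts tested were a median of 1.00 times.

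In ovary the members were moderately abundant, with a median of 16.2, 21.2 and 16.8 TPM in the 3 libraries. Their median was 0.372, 0.317 and 0.371 TPM in testis, against 2.86, 2.88 and 2.75 TPM in non-gonadal tissue. Together they summed to 6549, 7437 and 6931 TPM in ovary and to 165.8, 152.4 and 173.2 TPM in testis, against 1103, 1162 and 1112 TPM in non-gonadal tissue. The members therefore held up to 0.744% of all TPM in an ovary library and at most 0.0173% in a testis library. In ovary, 106 of the 146 reached 10 TPM and 18 reached 100 TPM. In testis, 110 stayed under 1 TPM and 29 under 0.1 TPM, and 9 had at most 3 counts over the 3 libraries together. In bulk tissue, fewer cells of a type and less RNA per cell cannot be told apart.

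**Figure D1:**
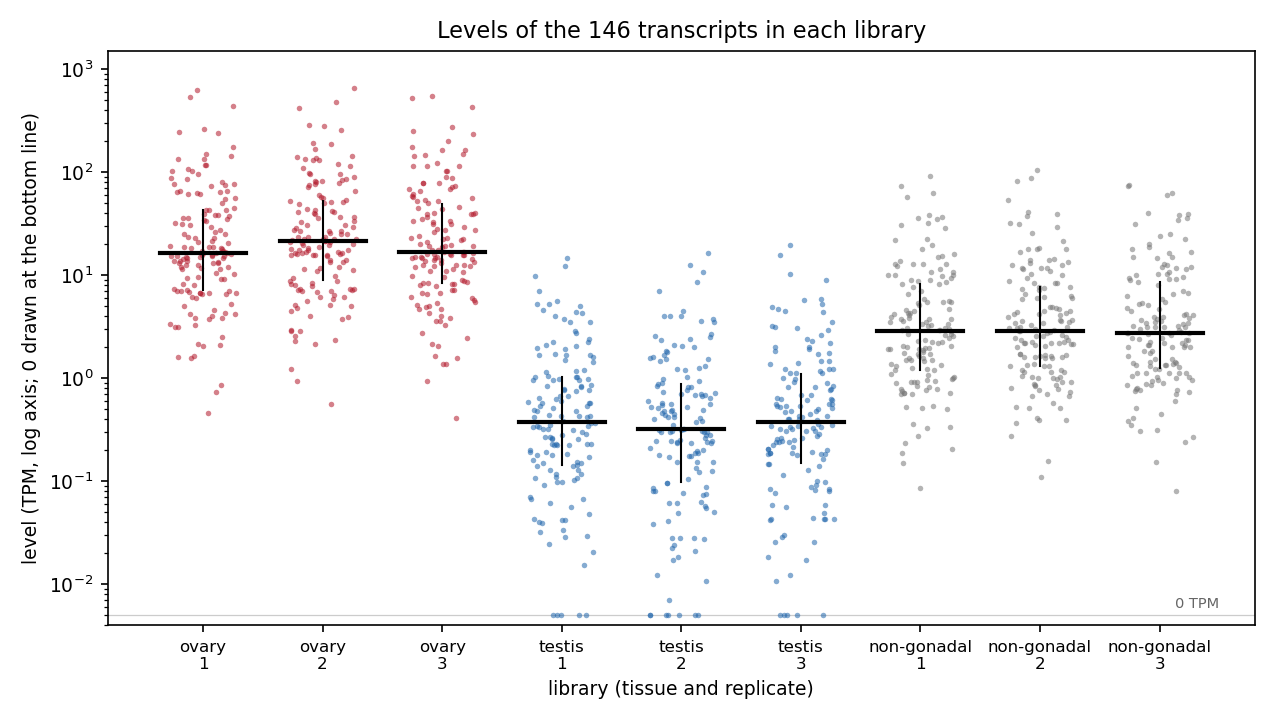
Level of each of the 146 transcripts in each library, in TPM on a log axis, with ovary, testis and non-gonadal libraries from left to right. Points are transcripts, the thick bar is the median, and the thin line spans the middle 50% of the transcripts. The medians sit at 16.2 to 21.2 TPM in ovary and 0.317 to 0.372 TPM in testis, against 2.75 to 2.88 TPM in non-gonadal tissue.

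Libraries of the same tissue gave similar values for the members. The median coefficient of variation over 3 libraries was 10.9% in ovary and 23.4% in testis, against 11.7% in non-gonadal tissue, the largest being in the tissue with the lowest counts. Ovary library 2 held the highest TPM of the 3 for 113 members, and ovary library 1 the lowest for 100 members. In testis no library held the highest value for more than 61 members, and in non-gonadal tissue library 2 held the highest for 77.

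One edgeR model of all 9 libraries, with TMM scaling for library composition, gave each member a log2 fold change and its standard error. Ovary exceeded non-gonadal tissue by a median log2 fold change of 1.82, with the middle 50% of members between 1.53 and 2.33, and testis lay below non-gonadal tissue with a median of -2.40, between -3.17 and -1.91. The median over all 18416 transcripts tested was 0.02 and -0.10 in these 2 comparisons. Between the gonads, ovary minus testis had a median of 4.35 in the members and 0.22 in all transcripts tested. The member with no testis count was also set at the bound its depth allows, and the medians of -2.40 and 4.35 stayed as they were. The median standard error was 0.15 in ovary against non-gonadal tissue and 0.22 in testis against non-gonadal tissue. Both comparisons use the same 3 non-gonadal libraries, and a fold change given below for ovary or testis is against them.

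In this edgeR model 146 members were called above non-gonadal tissue in ovary (at least 2-fold, Benjamini-Hochberg adjusted p at most 0.01), as were 18.3% of all transcripts tested. Below non-gonadal tissue in testis were 145 members, beside 35.1% of the transcripts tested, and higher in ovary than in testis were 146, beside 31.6%. The member without the second call was SMED30017770. The 3 ovary libraries lay above the 3 non-gonadal libraries for 146 members, beside 35.4% of all transcripts tested, and above the 3 testis libraries for 146, beside 45.7%. The testis libraries lay below the non-gonadal libraries for 145 members, beside 45.3%, and SMED30010239 was the exception. The rule fixed these counts.

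**Figure D2:**
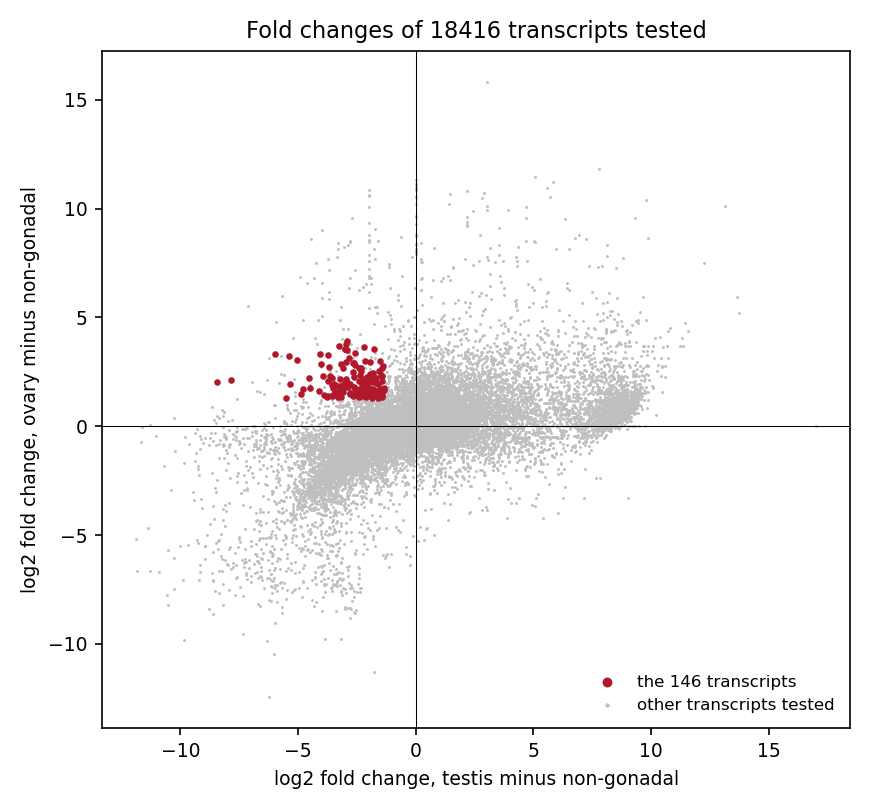
Log2 fold change of ovary minus non-gonadal tissue (vertical axis) against testis minus non-gonadal tissue (horizontal axis) for the 18416 transcripts tested, with the 146 members in red. The members fill the upper left part by their choice, between 1.30 and 3.91 on the ovary axis and between -8.46 and -1.36 on the testis axis.

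The size of the differences varied widely among the members. On the scale of mean CPM, ovary was at least 5 times non-gonadal tissue in 38 members and at least 10 times in 11. Testis was at least 5 times below non-gonadal tissue in 83 members, at least 10 times in 30 and at least 20 times in 11. The rule held the ovary ratio under 16 and set no upper limit on the testis side, so the spreads are not compared. The middle 50% of the ratios of non-gonadal to testis CPM ran from 3.68 to 8.95, with a highest value of 388. For ovary over non-gonadal CPM the middle 50% ran from 2.92 to 5.10. Ratios of TPM were larger, with a median of 5.49 for ovary over non-gonadal tissue and 7.16 for non-gonadal tissue over testis. TPM carries no factor for library composition and is also scaled by transcript length, and the part of each was not tested.

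Names were at hand only for transcripts with identifiers up to SMED30013439, from the part at hand of a list of transcripts that the study had chosen as ovary-enriched on these same libraries. All 62 members in that range stood in the list, 53 of them with a named protein match, and 26 of these fell into lists by function. The other 93 members are known here by identifier alone. A name below is that of the best protein match and need not be the planarian gene name. Reads of related copies, as in the tubulin, ankyrin, innexin and tincar families, may be shared between transcripts, and how such reads were counted is not given in the sources.

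Of the 26 members in function lists, 19 stood in the lists of receptors, signaling, channels, adhesion and innexins. Members were 5 of 11 entries for transmitter and peptide receptors and 5 of 12 for Wnt, TGF-beta and guidance signaling. The latter 5 matched wntless, CDON, TRAF3 and, in a pair of transcripts, tincar. Only wntless of these is named for Wnt, and none is named for TGF-beta. Ion channels and membrane transport gave 4 of 19, extracellular matrix and adhesion 4 of 14, and synaptic and secretory vesicle proteins 3 of 9. Transcription factors gave 3 of 17, innexins 1 of 4 and glycan synthesis 1 of 11. There were 0 members among 22 entries for DNA replication and repair, 22 for splicing and RNA export, 16 for ribosome biogenesis, 10 for germline and small RNA regulation and 7 for transposable elements. Over all 531 entries, 62 were members. These lists were formed from protein names, and their entries had been chosen as ovary-enriched on these libraries, so the counts are not independent evidence of a direction in ovary. How often the rule is met in 1 list against another was not tested.

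**Figure D3:**
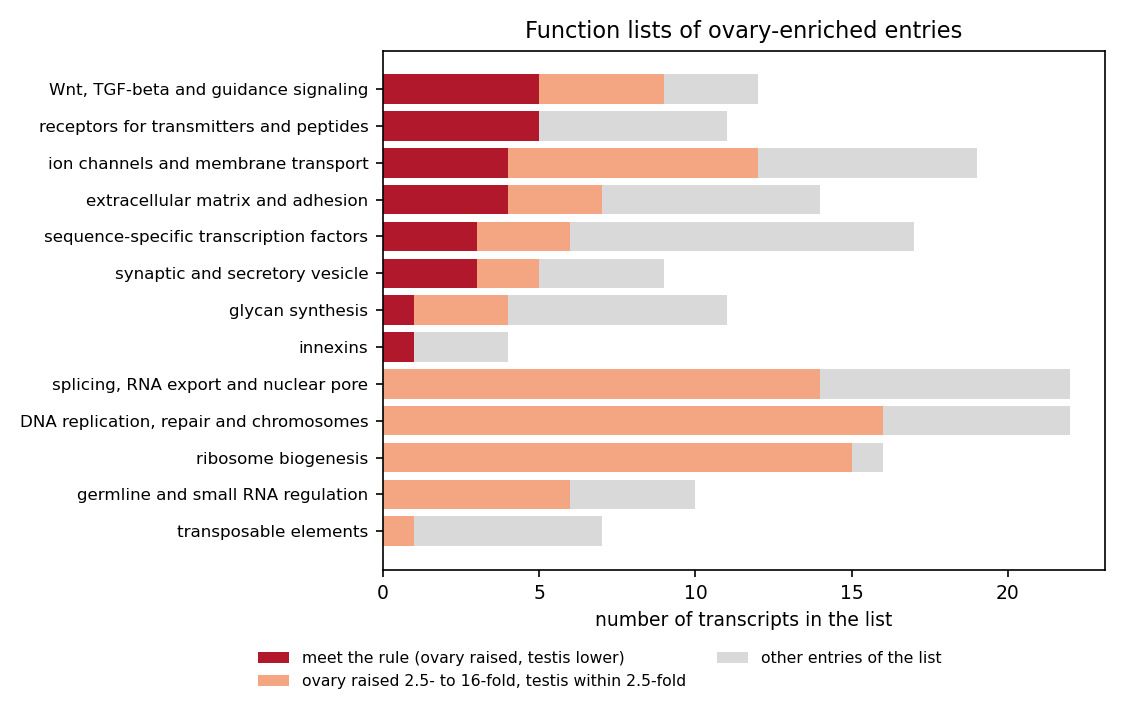
Number of transcripts (horizontal axis) in each of 13 function lists made from ovary-enriched entries, split into those that meet the rule, those raised in ovary with testis within 2.5-fold of non-gonadal tissue, and other entries. Members sit in 8 lists of surface, signaling, vesicle, transcription factor and glycan proteins. Receptors hold 5, as does the list named Wnt, TGF-beta and guidance signaling (wntless, CDON, TRAF3 and a pair of tincar matches). Of the 16 ribosome biogenesis entries 0 are members, and 15 had testis within 2.5-fold.

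The rule required every member to lie lower in testis, so only the entries outside the members were counted in testis against non-gonadal tissue, where 35.1% of all transcripts tested were called lower. Of the 6 other receptor entries, 5 were called lower and 0 higher, with a median log2 fold change of -2.07. In extracellular matrix and adhesion 5 of the 10 other entries were called lower, with a median of -1.0, and in Wnt, TGF-beta and guidance signaling 3 of 7, with a median of -0.63. Of the other innexins 1 of 3 was called lower, and of the other vesicle proteins 2 of 6. Other transcription factors had 4 of 14 lower with 2 higher, and other channels and transporters 3 of 15 with 1 higher. These small lists hold ovary-enriched entries without the members, so the 469 entries given below are a closer reference than all transcripts tested. DNA replication and repair had 0 lower and 7 higher of 22, with a median of 0.60, and ribosome biogenesis had 0 called either way of 16. Germline and small RNA regulation had 3 lower and 2 higher of 10, with a median of -0.1. Splicing and RNA export had 0 lower and 1 higher of 22, and transposable elements 0 lower and 1 higher of 7. The other glycan synthesis entries had 1 lower and 0 higher of 10. Over the 469 entries outside the members, 61 were called lower and 42 higher in testis, with a median of 0.13.

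Receptors for transmitters and peptides on the cell surface turn an outside signal into a current or a second messenger. A match to the muscarinic acetylcholine receptor M3 (ACM3, SMED30010657), a G-protein-coupled receptor, was at 21.4, 24.98 and 22.9 TPM in ovary and 0.0246, 0.0222 and 0 TPM in testis, against 0.955, 2.16 and 1.33 TPM in the non-gonadal libraries. Over the 3 libraries this was 2617 counts in ovary and 2 counts in testis, against 179 counts in non-gonadal tissue, so that ovary was 719 times testis by these summed counts scaled for depth and composition (95% exact counting interval 199 to 5940), and 701 times by mean CPM. The match to the *Drosophila* receptor for the neuropeptide SIFamide (SIFAR, SMED30006978) was also nearly absent from testis, at 9.202, 11.01 and 12.4 TPM in ovary and 0, 0 and 0.0302 TPM in testis, against 0.516, 0.697 and 1.005 TPM in the non-gonadal libraries. Its single testis count left the same ratio of summed counts at 499, with an interval from 89.4 to 19700.

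Another G-protein-coupled receptor, the match to the neurotensin receptor (NTR1, SMED30007024), was at 12.99, 17.4 and 14.04 TPM in ovary and 0.0669, 0.0604 and 0.0909 TPM in testis, against 0.704, 0.509 and 1.22 TPM in the non-gonadal libraries. On the log2 scale its fold change was 3.55 ± 0.24 in ovary and -2.99 ± 0.47 in testis (SE), the largest excess in ovary among the 5 receptors. The match to a nicotinic acetylcholine receptor subunit (ACHA6, SMED30004906), part of a cation channel opened by acetylcholine, differed less, at 8.12, 9.71 and 8.39 TPM in ovary and 0.182, 0.123 and 0.186 TPM in testis, against 1.99, 2.54 and 2.11 TPM in the non-gonadal libraries. On the log2 scale its fold change was 1.34 ± 0.15 in ovary and -3.32 ± 0.22 in testis (SE). Both classes of acetylcholine receptor, the channel and the G-protein-coupled one, were thus among the members.

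The fifth receptor was the match to the atrial natriuretic peptide receptor (ANPRA, SMED30008651), which in mammals makes cyclic GMP when bound by its peptide. It was at 13.1, 17.9 and 14.98 TPM in ovary and 0.189, 0.321 and 0.214 TPM in testis, against 1.25, 1.31 and 1.28 TPM in the non-gonadal libraries, with edgeR log2 fold changes of 2.94 ± 0.14 in ovary and -1.96 ± 0.19 in testis (SE). A match to phosphodiesterase 9A (SMED30002297), an enzyme that breaks down cyclic GMP, was at 14.6, 21.1 and 16.6 TPM in ovary and 0.269, 0.434 and 0.505 TPM in testis, against 4.13, 3.605 and 3.86 TPM in the non-gonadal libraries. A match to the regulatory subunit of cyclic AMP-dependent protein kinase (SMED30009728) was the most abundant of the 3 and the member nearest to the testis limit, at 106, 144 and 144 TPM in ovary and 6.93, 6.95 and 8.96 TPM in testis, against 28.5, 25.5 and 25.2 TPM in the non-gonadal libraries. On the log2 scale its fold change was 1.68 ± 0.13 in ovary and -1.36 ± 0.14 in testis (SE). A maker of cyclic GMP, a breaker of it and a sensor of cyclic AMP thus all stood among the members.

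The 6 receptor entries outside the members had lower levels, all under 3 TPM in ovary. The match to a serotonin receptor (SMED30005303) averaged 2.78 TPM in ovary and 0.186 TPM in testis, against 0.565 TPM in non-gonadal tissue. The sex peptide receptor match (SMED30005622) averaged 1.87 TPM in ovary and 0.0102 TPM in testis, against 0.503 TPM in non-gonadal tissue. A second match to ANPRA (SMED30000341) was the entry not called lower in testis, at 0.942 TPM in ovary and 0.024 TPM in testis, against 0.0865 TPM in non-gonadal tissue.

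**Figure D4:**
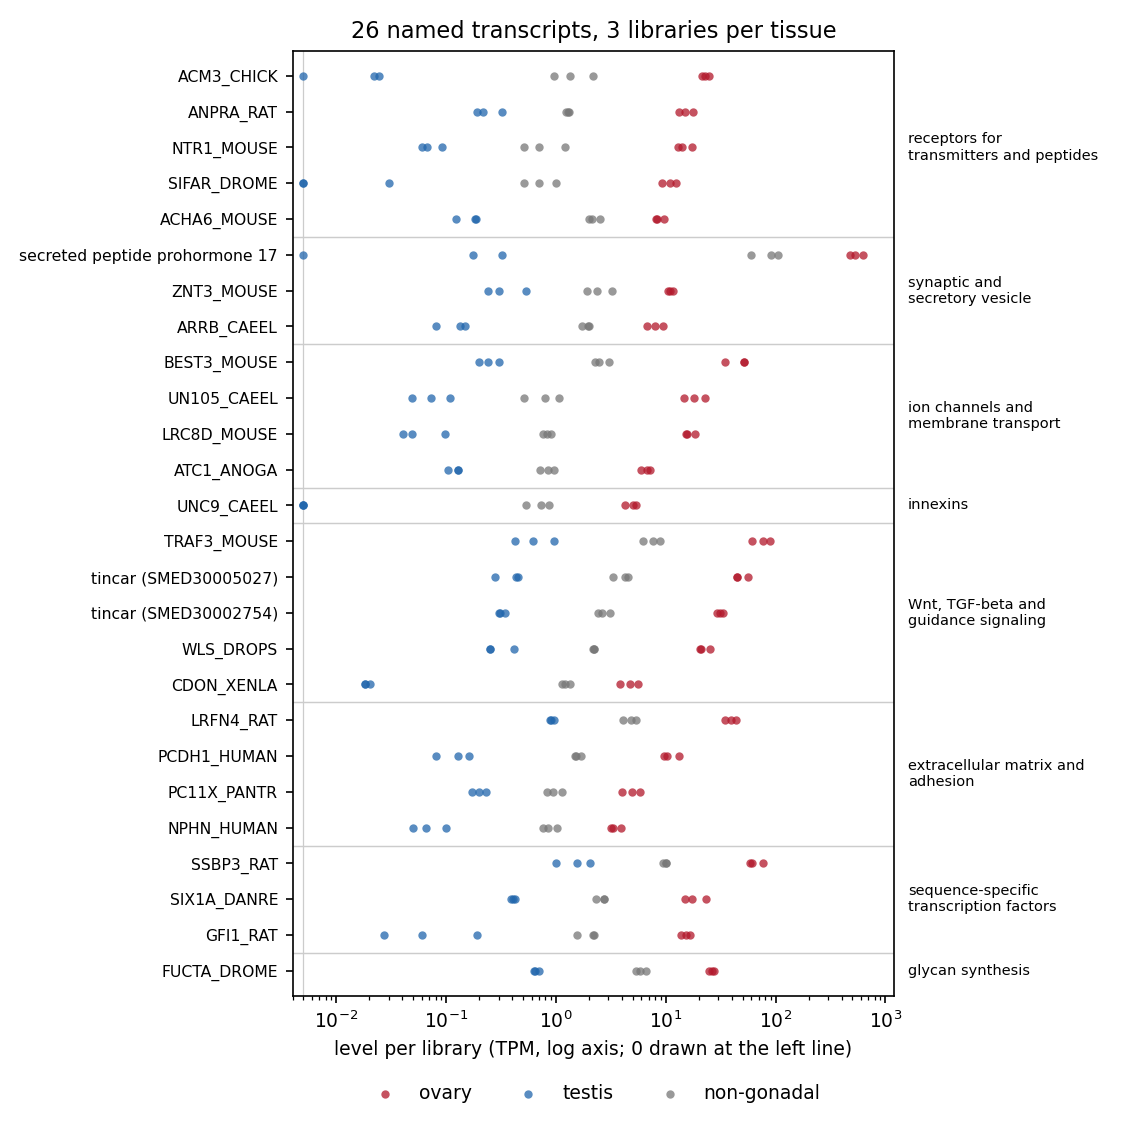
Level of the 26 members in function lists, in TPM on a log axis, with 1 point per library, named by the SwissProt code of the matched protein or by its name. Ovary libraries (red) lie to the right of all non-gonadal libraries (grey), and testis libraries (blue) to the left of them, in all 26. The rule all but fixed this. Of all transcripts tested, 35.4% had ovary above and 45.3% had testis below non-gonadal tissue without overlap. Testis values of 0 are drawn at the left line, as for the 3 testis libraries of the innexin UNC9.

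A peptide hormone precursor had the widest measured ratio between the gonads. The match to secreted peptide prohormone 17 (SMED30008210), a transcript of 245 bases, was at 629, 478 and 526 TPM in ovary and 0.177, 0 and 0.3203 TPM in testis, against 91.3, 105.3 and 59.8 TPM in the non-gonadal libraries. Over the 3 libraries it had 8549 counts in ovary and 3 in testis, against 1417 in non-gonadal tissue, and by these summed counts, scaled in the same way, ovary was 1570 times testis (95% exact counting interval 535 to 7590). By summed counts non-gonadal tissue was 380 times testis, with an interval from 130 to 1850, and by mean CPM 388 times. By mean ovary TPM, which is scaled by transcript length, it was the second of all 146 members, at 545 TPM. By CPM, which is not, its ovary mean was 94.2, against 361 in the alpha tubulin match (SMED30001212).

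Vesicle and receptor regulators were at far lower levels. The match to beta-arrestin (SMED30005314), which shuts off active G-protein-coupled receptors, was at 6.75, 9.34 and 7.95 TPM in ovary and 0.149, 0.135 and 0.0812 TPM in testis, against 1.95, 1.99 and 1.74 TPM in the non-gonadal libraries. The match to zinc transporter 3 (SMED30008023), which loads zinc into synaptic vesicles in mammals, was at 10.4, 11.6 and 10.8 TPM in ovary and 0.536, 0.242 and 0.303 TPM in testis, against 1.93, 2.36 and 3.21 TPM in the non-gonadal libraries. The coefficient of variation of its ovary CPM was 0.309%. Its log2 fold changes were 1.49 ± 0.21 in ovary and -2.37 ± 0.29 in testis (SE). For all 3 members of this list the libraries of the 3 tissues did not overlap, which the rule all but fixed.

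Because the ovaries lie near the brain, sums of the vesicle list and levels of monoamine enzymes are also given. The 9 vesicle entries had been chosen as ovary-enriched on these libraries, so their higher level in ovary cannot measure nerve cells. Without the prohormone, 8 of them summed to 122 to 136 TPM in ovary and to 9.93 to 12.5 TPM in testis, against 22.1 to 24.2 TPM in non-gonadal tissue. The entry at 0 in testis was the synaptotagmin-15 match (SMED30007197). The marker of serotonin neurons, *tph1*, averaged 1.91 TPM in ovary and 0.0825 TPM in testis, against 2.64 TPM in non-gonadal tissue. Its mean was thus not higher in ovary. The paper sets *henna*, a homolog of a peripheral enzyme of serotonin synthesis, apart from the neuronal *tph1*, so *henna* does not mark nerve cells. The mean of *henna* was also not higher in ovary, at 23.4 TPM against 30.7 TPM in non-gonadal tissue. The monoamine enzyme *aadc* went the other way, averaging 92.8 TPM in ovary and 8.29 TPM in testis, against 9.16 to 10.5 TPM in non-gonadal libraries. The paper reports *aadc* in somatic cells of both gonads as well as in neurons, so it does not mark nerve cells alone. The part of nerve cells in the members' levels was not tested.

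Ion channels and pumps set the membrane voltage, volume and calcium of a cell. The match to the degenerin unc-105 (SMED30002847), of a family of sodium channels, was at 22.6, 18.2 and 14.7 TPM in ovary and 0.108, 0.0732 and 0.0489 TPM in testis, against 0.509, 1.05 and 0.787 TPM in the non-gonadal libraries. The fold change on the log2 scale, 3.91 ± 0.25 in ovary and -2.92 ± 0.49 in testis (SE), was the highest in ovary of all 146 members, and its ovary to non-gonadal CPM ratio of 15.5 lay just inside the upper limit of 16. Ovary library 1 held the highest and library 3 the lowest value, and the coefficient of variation of 25.3% was among the 5 largest in ovary.

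Another pair of matches belongs to anion channel families. The match to bestrophin-3 (SMED30008018) was at 34.5, 51.1 and 51.9 TPM in ovary and 0.1997, 0.301 and 0.241 TPM in testis, against 2.25, 3.04 and 2.46 TPM in the non-gonadal libraries, with edgeR log2 fold changes of 3.50 ± 0.17 in ovary and -2.94 ± 0.28 in testis (SE). The match to LRRC8D (SMED30009086), a subunit of the channel that opens when a cell swells, was at 15.3, 18.5 and 15.7 TPM in ovary and 0.0402, 0.0484 and 0.0972 TPM in testis, against 0.891, 0.8297 and 0.767 TPM in the non-gonadal libraries, with edgeR log2 fold changes of 3.67 ± 0.14 in ovary and -3.27 ± 0.26 in testis (SE). The match to a calcium pump of the endoplasmic reticulum (ATC1, SMED30006630) showed a smaller excess, at 5.94, 7.21 and 6.73 TPM in ovary and 0.129, 0.105 and 0.128 TPM in testis, against 0.713, 0.845 and 0.964 TPM in the non-gonadal libraries.

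Innexins form the gap junctions of invertebrates, the pores that join neighbouring cells. The match to *C. elegans* unc-9 (SMED30000845) was the member with no testis count at all, at 4.21, 5.04 and 5.38 TPM in ovary and 0, 0 and 0 TPM in testis, against 0.535, 0.868 and 0.726 TPM in the non-gonadal libraries. With 506 counts in ovary and 78 in non-gonadal tissue, and a floor of 3 counts over the testis libraries, ovary was at least 92.7-fold higher than testis and testis at least 20.9-fold lower than non-gonadal tissue. The other 3 innexin entries lay outside the rule, with log2 fold changes from 4.89 to 8.42 in ovary against non-gonadal tissue. Innexin-3 (SMED30000693) averaged 21.7 TPM in ovary and 0.0342 TPM in testis, against 0.475 TPM in non-gonadal tissue. Innexin-11 (SMED30009689) averaged 22.1 TPM in ovary and was listed at 0 in testis, against 0.0345 TPM in non-gonadal tissue. Innexin-19 (SMED30000731) averaged 16.9 TPM in ovary and 0.0383 TPM in testis, against 0.0442 TPM in non-gonadal tissue, and its log2 fold change in testis was 0.22. Of these 3, Innexin-3 was called lower in testis and Innexin-11 and Innexin-19 were not called.

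In the Wnt, TGF-beta and guidance list, the members matched wntless, CDON, TRAF3 and, in a pair of transcripts, tincar. The match to wntless (SMED30011055), which carries Wnt proteins to the cell surface, was at 20.5, 25.1 and 20.8 TPM in ovary and 0.417, 0.251 and 0.252 TPM in testis, against 2.22, 2.23 and 2.19 TPM in the non-gonadal libraries, with edgeR log2 fold changes of 2.68 ± 0.13 in ovary and -2.43 ± 0.18 in testis (SE). The match to CDON (SMED30002117), a surface co-receptor for Hedgehog, was at 3.83, 5.63 and 4.695 TPM in ovary and 0.0202, 0.0182 and 0.0183 TPM in testis, against 1.22, 1.34 and 1.12 TPM in the non-gonadal libraries. CDON had the smallest ovary excess of all members, with a CPM ratio of 2.5 at the limit of the rule, but a non-gonadal to testis CPM ratio of 47.4.

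The match to TRAF3 (SMED30002663), an adaptor below receptors of the TNF family, was the most abundant of this list, at 61.2, 89.6 and 77.4 TPM in ovary and 0.958, 0.422 and 0.614 TPM in testis, against 7.61, 6.18 and 8.85 TPM in the non-gonadal libraries. Both transcripts matched to the *Drosophila* membrane protein tincar were members. SMED30005027 was at 44.2, 55.9 and 44.2 TPM in ovary and 0.431, 0.278 and 0.446 TPM in testis, against 4.25, 4.49 and 3.33 TPM in the non-gonadal libraries. SMED30002754 was at 29.2, 33.02 and 31.4 TPM in ovary and 0.301, 0.312 and 0.341 TPM in testis, against 2.43, 2.605 and 3.098 TPM in the non-gonadal libraries. Their log2 fold changes in ovary, 2.94 ± 0.13 and 2.89 ± 0.11 (SE), were alike, as were those in testis, -2.95 ± 0.19 and -2.65 ± 0.15 (SE). Since reads may be shared between this pair, the values may not be independent.

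Among entries of this list outside the members, the receptor Frizzled-10 (SMED30006583) averaged 4.03 TPM in ovary and 0.943 TPM in testis, against 0.795 TPM in non-gonadal tissue. Smad4 (SMED30011742), which carries TGF-beta signals to the nucleus, averaged 50.4 TPM in ovary and 6.56 TPM in testis, against 11.7 TPM in non-gonadal tissue. Neither was called lower in testis.

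Adhesion molecules hold cells together and mark which cells contact each other. The match to LRFN4 (SMED30000261), a leucine-rich repeat protein of synapses in mammals, was the most abundant of the 4, at 34.8, 43.4 and 39.3 TPM in ovary and 0.966, 0.873 and 0.897 TPM in testis, against 4.07, 4.85 and 5.33 TPM in the non-gonadal libraries. The match to protocadherin-1 (SMED30002762) was at 10.2, 13.3 and 9.66 TPM in ovary and 0.127, 0.0805 and 0.162 TPM in testis, against 1.496, 1.69 and 1.51 TPM in the non-gonadal libraries. The match to protocadherin-11 X-linked (SMED30010131) was at 3.97, 5.84 and 4.96 TPM in ovary and 0.171, 0.232 and 0.199 TPM in testis, against 0.826, 1.13 and 0.941 TPM in the non-gonadal libraries. Protocadherins are adhesion molecules of the cadherin family, and both matches were highest in ovary library 2. The match to nephrin (SMED30010202), an immunoglobulin-domain protein of the kidney filter in mammals, was at 3.14, 3.88 and 3.29 TPM in ovary and 0.0661, 0.0498 and 0.0998 TPM in testis, against 0.769, 1.02 and 0.849 TPM in the non-gonadal libraries. Log2 fold changes of the 4 ran from 1.33 to 2.40 in ovary and from -3.23 to -1.83 in testis.

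Of the transcription regulators, the match to SSBP3 (SMED30003736), a cofactor of LIM-homeodomain factors, was at 60.8, 76.1 and 58.7 TPM in ovary and 2.06, 1.54 and 0.995 TPM in testis, against 9.37, 10.14 and 10.03 TPM in the non-gonadal libraries. The homeobox match six1a (SMED30005620) was at 14.8, 23.2 and 17.3 TPM in ovary and 0.426, 0.409 and 0.386 TPM in testis, against 2.33, 2.74 and 2.74 TPM in the non-gonadal libraries. The match to the zinc finger repressor GFI1 (SMED30006871) was at 15.1, 16.4 and 13.8 TPM in ovary and 0.0607, 0.0274 and 0.193 TPM in testis, against 1.55, 2.197 and 2.18 TPM in the non-gonadal libraries. Their excess in ovary was similar, with log2 fold changes from 2.09 to 2.30, while GFI1 lay farther below non-gonadal tissue in testis, at -3.92 ± 0.38 (SE), than SSBP3 at -2.26 ± 0.18 (SE) and six1a at -2.24 ± 0.20 (SE). These differences between transcripts were not tested.

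The glycan synthesis member was the match to a fucosyltransferase (FUCTA, SMED30003087), which adds fucose to the core of glycoproteins in *Drosophila*. It was at 24.9, 27.6 and 26.3 TPM in ovary and 0.643, 0.702 and 0.631 TPM in testis, against 5.37, 6.58 and 5.85 TPM in the non-gonadal libraries, with edgeR log2 fold changes of 1.51 ± 0.11 in ovary and -2.74 ± 0.15 in testis (SE). The coefficient of variation of its ovary CPM was 0.673%.

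The remaining 27 named members lay in no list and were grouped by role after their values were seen. Cytoskeletal and scaffold proteins gave 8, with ovary means from 4.42 to 266 TPM. The match to alpha tubulin (SMED30001212), the building block of microtubules, was at 259, 288 and 252 TPM in ovary and 9.84, 12.4 and 15.7 TPM in testis, against 57.5, 53.3 and 61.9 TPM in the non-gonadal libraries. The match to a dynein light chain (SMED30002774), part of a motor that walks along microtubules, was at 238, 189 and 199 TPM in ovary and 1.601, 0.304 and 1.37 TPM in testis, against 8.96, 14.04 and 11.9 TPM in the non-gonadal libraries. The tubulin transcript differed moderately, with log2 fold changes of 1.58 ± 0.16 in ovary and -1.75 ± 0.16 in testis (SE), and the dynein light chain more, with 3.53 ± 0.23 in ovary and -3.0 ± 0.35 in testis (SE). The match to NHE-RF1 (SMED30012902), a scaffold that anchors membrane transporters, was at 133, 188 and 163 TPM in ovary and 5.201, 4 and 5.18 TPM in testis, against 34.8, 29.2 and 35.4 TPM in the non-gonadal libraries. The other 5 matched ankyrin-1, ankyrin-3 and whirlin, which tie membrane proteins to the cytoskeleton or to each other, the actin regulator PHACTR4, and citron kinase, which acts in cell division.

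Kinases, a match to a substrate that interacts with kinase D (SMED30002023), cyclic nucleotide proteins and a small GTPase gave 7. Their log2 fold changes ran from 1.45 to 1.94 in ovary and from -4.10 to -1.36 in testis. The GTPase REM1 (SMED30004841) had the lowest of these testis fold changes, at 0.0334, 0.151 and 0 TPM in testis, against 1.71, 1.72 and 1.11 TPM in non-gonadal tissue. The match to the fission yeast kinase mek1 (SMED30008475), which acts in meiosis in that yeast, was at 5.003, 6.35 and 7.06 TPM in ovary and 0.0418, 0.0378 and 0.114 TPM in testis, against 1.02, 0.757 and 1.31 TPM in the non-gonadal libraries. The lower testis level of this match was required by the rule, and a role of the transcript in planarian meiosis was not tested. The match to MAP4K3 (SMED30010151) was among the 5 most variable members in ovary, at 11.9, 12.1 and 7.87 TPM.

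Metabolic enzymes gave 6 members, with ovary means from 18.3 to 74.1 TPM. The match to monoglyceride lipase (SMED30008782), which breaks down monoacylglycerols, was at 49.4, 56.7 and 53.2 TPM in ovary and 0.788, 0.672 and 0.476 TPM in testis, against 9.996, 9.34 and 10.6 TPM in the non-gonadal libraries. The match to aminoacylase-1A (SMED30005961), which frees amino acids from their acetylated forms, was at 80.7, 72.01 and 61.5 TPM in ovary and 2.08, 1.57 and 1.76 TPM in testis, against 8.22, 8.42 and 8.62 TPM in the non-gonadal libraries. The log2 fold changes of the 6 ran from 1.43 to 2.46 in ovary and from -3.52 to -1.45 in testis, with the lipase the lowest in testis. The other 4 matched 5-oxoprolinase, mitochondrial adenylate kinase 2, a cytosolic purine nucleotidase and a metallophosphoesterase.

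Another 6 named members fitted none of these roles, and their ovary means ran from 3.95 to 159 TPM. The match to tetraspanin-1 (SMED30010326), a protein that spans the cell membrane, was the most abundant, at 149, 165 and 163 TPM in ovary and 4.54, 4.03 and 4.897 TPM in testis, against 36.5, 40.6 and 39.6 TPM in the non-gonadal libraries. A match to the RNA-binding protein RBMS1 (SMED30012856) was at 76.2, 96.2 and 86.4 TPM in ovary and 0.826, 0.808 and 0.561 TPM in testis, against 9.87, 13.2 and 12.03 TPM in the non-gonadal libraries. The other 4 matched FANK1, ZMIZ2, an interferon regulatory factor 2-binding protein and the tapeworm antigen EG13. All had testis values below every non-gonadal library, which the rule all but fixed.

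Among the 15 members with the highest ovary level, 9 had no name. SMED30007364, of 538 bases, had the highest mean ovary TPM of all members. It was at 536, 653 and 545 TPM in ovary and 14.5, 16.2 and 19.7 TPM in testis, against 72.2, 86.9 and 74.6 TPM in the non-gonadal libraries. SMED30030310 was at 434, 417 and 422 TPM in ovary and 12.23, 10.7 and 10.3 TPM in testis, against 62.7, 81.97 and 73.3 TPM in the non-gonadal libraries. SMED30014981 was at 242, 281 and 275 TPM in ovary and 5.21, 8.46 and 5.81 TPM in testis, against 38.3, 38.8 and 38.1 TPM in the non-gonadal libraries. These 3 unnamed transcripts were close to the median member in ovary, with log2 fold changes of 2.25 ± 0.13, 1.92 ± 0.13 and 2.16 ± 0.16 (SE). Of the 9 unnamed, SMED30003010 lay farthest below non-gonadal tissue in testis, at 132, 129 and 149.7 TPM in ovary and 1.05, 0.568 and 0.7601 TPM in testis, against 31.6, 31.9 and 30.9 TPM in the non-gonadal libraries, with edgeR log2 fold changes of 1.49 ± 0.12 in ovary and -4.88 ± 0.20 in testis (SE). The other unnamed transcripts of the 15 were SMED30015879, SMED30009997, SMED30020042, SMED30022942 and SMED30025408, with ovary means from 118 to 222 TPM.

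At the low end of ovary TPM stood long transcripts. The rule set its limits on CPM, which is not divided by length, so this order follows at least in part from length. SMED30024211, of 16514 bases, averaged 0.472 TPM in ovary and 0.0305 TPM in testis, against 0.112 TPM in non-gonadal tissue. SMED30017770, of 7325 bases, was at 0.726, 1.22 and 0.936 TPM in ovary and 0.106, 0.0107 and 0.0429 TPM in testis, against 0.236, 0.158 and 0.154 TPM in the non-gonadal libraries. SMED30010239, of 7337 bases, was at 0.861, 0.926 and 1.38 TPM in ovary and 0.0295, 0.0853 and 0.0107 TPM in testis, against 0.08503, 0.388 and 0.2396 TPM in the non-gonadal libraries. SMED30010239 had 16 counts in testis library 2 and 13 counts in non-gonadal library 1, so that these 2 tissues overlapped. It lost its ovary or testis call when any library but testis library 2 was left out, with log2 fold changes then from 1.11 to 1.61 in ovary and from -2.06 to -1.51 in testis. Its coefficient of variation in ovary, 26.8%, was the highest of all members. The other low members were SMED30024198 and SMED30029825, at 1.77 and 1.78 TPM in ovary.

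Between the gonads the widest ratios of CPM, besides the innexin at 0, belonged to the prohormone, ACM3, SIFAR and the unnamed SMED30023770. The last was at 13.6, 21.2 and 19.1 TPM in ovary and 0, 0.0278 and 0.0557 TPM in testis, against 1.499, 1.58 and 1.12 TPM in the non-gonadal libraries, and with 3 testis counts its ratio of ovary to testis by summed counts was 300 (95% exact counting interval 102 to 1460). The narrowest ratios were 6.97 in SMED30021961, 7.45 in SMED30024211, 7.47 in SMED30029249, 7.49 in SMED30000251 and 7.60 in SMED30024758. In ovary the 5 most variable members were SMED30010239, unc-105, SMED30024198, MAP4K3 and SMED30018665, with coefficients of variation from 21.3% to 26.8%.

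The members nearest to the limits of the rule had values close to those of transcripts just outside. Just inside the lower ovary limit of 2.5 stood CDON with a CPM ratio of 2.5, SMED30000251 with 2.52 and SMED30024849 with 2.53, and just outside stood SMED30004327, SMED30008930 and SMED30024491 with 2.49, 2.49 and 2.48. At the testis limit of 2.5 the cyclic AMP-dependent kinase subunit had a non-gonadal to testis ratio of 2.53, SMED30033763 had 2.55 and SMED30023473 had 2.58, and outside were SMED30010856 with 2.48, SMED30030481 with 2.45 and SMED30009787 with 2.39. At the upper ovary limit of 16 the members unc-105, SMED30013891 and SMED30024573 had ratios of 15.5, 14.1 and 13, and SMED30021900, SMED30005227 and SMED30017714 lay outside with 16.9, 19.4 and 22.6. Near the non-gonadal limit of 1 CPM, SMED30028862, SMED30006978 and SMED30024179 were inside with 1.01, 1.04 and 1.06 CPM, and SMED30001334, SMED30010039 and SMED30021375 were outside with 0.954, 0.941 and 0.933 CPM.

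The members were set beside 715 transcripts with the same range of ovary excess but testis within 2.5-fold of non-gonadal tissue, and 3402 transcripts lower in testis but with ovary within 2.5-fold. Median ovary levels were 18.1 TPM in the members, 29.5 TPM in the 715 and 10.5 TPM in the 3402. In non-gonadal tissue the medians were 2.77, 5.05 and 8.6 TPM, the lowest being that of the members. Transcript length had a median of 1703 bases in the members, 1680 in the 715 and 1534 in the 3402, against 1360 in all transcripts tested. These are descriptions of sets that the CPM values cut.

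Outside the members, the patterns over 9 libraries most like that of the median member (Pearson r of log2 CPM from 0.997) were those of SMED30014567, SMED30020273, SMED30000995, SMED30002414 and SMED30019483. SMED30000995, the match to pyruvate kinase, averaged 171 TPM in ovary and 17.9 TPM in testis, against 47.5 TPM in non-gonadal tissue, and missed both fold limits. SMED30002414, the match to the Notch ligand Delta-like protein C, averaged 21.4 TPM in ovary and 0.0934 TPM in testis, against 2.10 TPM in non-gonadal tissue, and was on the list of dropped transcripts. A likeness over libraries of 3 tissues describes the order of the tissue levels and was not tested.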

How the data were processed

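RNA of laser-captured ovary, testis and non-gonadal tissue was sequenced in 3 libraries each as single-end reads of 100 nt from stranded libraries. The authors trimmed the reads, mapped them to a de novo planarian transcriptome with the *zfs1* transcript added, and counted them in CLC Genomics Workbench, whose version the sources used here do not give. They deposited read counts without normalization, RPKM and TPM computed from these counts, and CPM. The deposited CPM is a signal that carries an undescribed factor for library composition, since it sums to between 724797 and 1582270 per library. The planned analysis had taken it for plain CPM. The 12 deposited columns of the authors' own comparisons hold fold changes and p-values and were not used.

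The members and the function lists were chosen with earlier results of these data known. Members were found on the deposited CPM means, and levels are given as deposited TPM. Lengths came from the quotient of counts and RPKM, within 0.5%. Counts of the transcripts that reached 1 CPM in 3 or more libraries (18416 of 36036, among them all 146 members) were fitted in edgeR 4.0.16 (R 4.3.3, limma 3.58.1) with TMM scaling, in 1 quasi-likelihood model of tissue over all 9 libraries, checked on simulated counts. A transcript was called at 2-fold or more with an adjusted p (Benjamini-Hochberg, over all transcripts tested) no higher than 0.01. Both tables of counts were equal in all 324324 values. Standard errors (SE) of log2 fold changes were derived from the F statistic. A set of worms is described for each replicate, but not whether sets were shared between libraries, so the spread between libraries may be in part technical. With 3 libraries against 3, the smallest two-sided p of an exact permutation test is 0.1. For a transcript with 3 or fewer testis counts, the ratio has an exact 95% interval, and for 0 counts a floor of 3 counts over the 3 libraries. Both cover counting error only.

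Transcripts named in the text were the members in a function list, the 15 with the highest and 5 with the lowest ovary TPM, the 5 with the highest and 5 with the lowest ratio of ovary to testis CPM, the 3 on either side of each limit, the 5 most variable in ovary, and the 5 most alike outside (Pearson r of log2 CPM with 0.5 added). Other named members and list entries outside the members were added after their values were seen. Alternatives were DESeq2 size factors, library size alone, the DESeq2 1.42.0 Wald test, no filter, an adjusted p of 0.05, the replicate block, each library left out, and other scalings and limits of the rule.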

Additional observations from a re-analysis of the deposited data

How the results depend on the processing

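The number of transcripts meeting the rule depended on the scale. CPM from library totals without the composition factor gave 351 before the limit of 300, 124 of the 300 kept being members, and TPM in place of CPM gave 400 and 96 members among the 300 kept. Limits of 2-fold gave 276 transcripts, limits of 3-fold gave 93, and a non-gonadal mean of at least 3 CPM gave 100. Leaving out each library gave 140 to 153, with 135 to 145 of the members kept.

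With library size alone, 5311 transcripts were called above non-gonadal tissue in ovary, against 3364 with TMM, and 9738 higher in ovary than in testis, against 5828. The medians of the members became 2.24 for ovary against non-gonadal tissue, -2.95 for testis against non-gonadal tissue and 5.32 for ovary against testis, while those of all transcripts tested moved to 0.44, -0.65 and 1.19. Relative to those shifts the members kept the direction of every comparison. DESeq2 size factors in edgeR and the DESeq2 Wald test each gave medians of -2.30 for testis against non-gonadal tissue and 4.24 for ovary against testis.

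Without each library in turn, the members' medians ran from 1.78 to 1.84, from -2.51 to -2.35 and from 4.24 to 4.44, and the members called numbered 145 to 146, 144 to 145 and 146 in the same order of comparisons. Of the transcripts tested, 3227 to 3505, 6313 to 6582 and 5376 to 5903 were called. With the replicate block, 146, 145 and 146 members were called, the medians were 1.81, -2.41 and 4.36, and 3283, 6452 and 5799 transcripts were called, within 1.5 times the counts without it. The replicate numbers were not taken to pair the samples, and the sources do not say whether they do. Deviations of same-numbered libraries correlated at 0.02 to 0.23, all positive, and those of differently numbered libraries at -0.19 to 0.08, mostly negative. Non-gonadal library 1 correlated with testis library 2 (0.03) no less than with testis library 1 (0.02). Pairing by number was not tested, and the fit with the replicate block allows for it.

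Over 4365 values of 97 named transcripts under 15 settings, none that was called in the main fit or under the setting changed direction. Changes of direction in values called in neither were not counted. Of the 4365 values, 18 fell below the call threshold and 8 rose above it. Those of members that fell below belonged to SMED30010239, which lost its ovary call without non-gonadal libraries 1 or 3, any ovary library or testis library 1 (1.11 to 1.61), its testis call without non-gonadal libraries 2 or 3, ovary libraries 1 or 2, or testis libraries 1 or 3 (-2.06 to -1.51), and both with DESeq2 size factors (1.48 and -1.96). SMED30017770 gained its testis call with an unfiltered fit (-1.40), the DESeq2 Wald test (-1.29), library size alone (-1.90), an adjusted p of 0.05 (-1.37) and without testis library 1 (-2.30). Testis levels of the 9 members with at most 3 counts are limited by depth.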
